A study of Homo sapiens with 16 samples.

Results

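The 60 genes described here are the nuclear-encoded subunits of mitochondrial respiratory complexes I to IV, out of 23575 gene symbols counted in HL-60 cells. They were chosen by name (NDUFA, NDUFB, NDUFC, NDUFS and NDUFV with a number; SDHA to SDHD; UQCR; COX4 to COX8), leaving out names of pseudogenes, and selected on a measured level, a mean of at least 1 CPM (counts scaled to a common library size) over the 12 libraries of differentiated cells. The name pattern matched 68 symbols, 67 without the pseudogene UQCRBP1, and the level left 60: 35 of complex I, 4 of complex II, 9 of complex III and 12 of complex IV. NDUFA4, named as a complex I gene, was placed in complex IV, where its protein is known to sit. Just inside the threshold were NDUFA13 with a mean of 2.73 CPM, NDUFV2 with 3.37 and NDUFC1 with 8.28, and just outside it were NDUFA7 with 0.988, COX6B2 with 0.0078 and COX8C with 0.0068. COX4I2, COX6A2, COX7A1 and COX7B2, which include muscle and lung isoforms of complex IV subunits, had 0 counts in every dHL-60 library.

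HL-60 is a human promyelocytic leukaemia line, and it was used undifferentiated (uHL-60) and differentiated into neutrophil-like cells (dHL-60). The dHL-60 cells were left untreated or received 1 or 10 µg/ml of lipoteichoic acid (LTA) from Staphylococcus aureus and were collected after 4 or 24 h, giving 6 groups of 2 libraries. The uHL-60 cells were left untreated or received 1 µg/ml LTA for 4 or 24 h, giving 4 groups of 1 library. The sources used here do not name the agent that differentiated the cells, and all cells are of a single tumour line. The labels call the dHL-60 pairs duplicates without saying whether each was its own culture. The p-values therefore speak only of the spread within these pairs, part or all of which may be technical.

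The respiratory chain passes electrons from NADH (through complex I) or succinate (through complex II) by ubiquinone to complex III, then by cytochrome c to complex IV, which reduces oxygen. Complexes I, III and IV pump protons across the inner mitochondrial membrane, and the gradient drives ATP synthesis. Each of these 3 complexes is built from a few core subunits and many accessory ones, and all have some core subunits encoded in mitochondrial DNA, while complex II is encoded wholly in the nucleus. Neutrophils are known for few mitochondria and a strong reliance on glycolysis. LTA is a cell wall glycolipid of Gram-positive bacteria that is sensed through TLR2.

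Libraries held 9653374 to 20157081 gene counts, and the 60 subunits took 0.299% to 0.506% of the counts of a dHL-60 library and 0.795% to 0.844% of a uHL-60 library. The uHL-60 columns were stored in another order of symbols and were realigned first, which moved 1343 symbols but none of the 60. Defining markers were checked in every library, in CPM of plain library totals: the summed level of 10 neutrophil genes was 1771 to 14343 CPM in dHL-60 and 248 to 286 CPM in uHL-60, and that of 7 promyelocyte genes was 4871 to 24989 CPM in dHL-60 and 24923 to 27483 CPM in uHL-60. Untreated dHL-60 at 24 h stood apart, with 1771 to 1914 CPM of neutrophil genes against 5994 to 7145 CPM at 4 h. These sums lean on a few genes: in dHL-60, MPO alone was at 4204 to 20432 CPM and S100A9 at 503 to 6268 CPM. Among the 10 neutrophil genes, CXCR2 did not follow the neutrophil sum. It was at 21.63 to 26.821 CPM in uHL-60 and at 4.798 to 5.697 CPM in dHL-60 with LTA at 4 h. In all dHL-60 libraries at 24 h CXCR2 was at 13.372 to 25.596 CPM. Only untreated dHL-60 at 4 h, at 41.207 and 31.335 CPM, lay above uHL-60. ELANE and AZU1 went the other way from the promyelocyte sum. In untreated cells ELANE was at 1007 to 1960 CPM in dHL-60 and 804 and 824 in uHL-60, and AZU1 at 465 to 657 and at 209 and 254. Markers of macrophages (6 genes, 0.63 to 7.65 CPM), lymphocytes (5 genes, 11.6 to 292 CPM, mostly NKG7), eosinophils or basophils (5 genes, 2.15 to 23.6 CPM) and red cells or platelets (6 genes, 0.121 to 39.7 CPM) are given by their range over the dHL-60 libraries. The part of these markers in the results below was not tested, and in bulk RNA a change in the share of a cell type cannot be told apart from a change in RNA per cell.

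Most subunits moved little when dHL-60 cells met LTA. Log2 fold changes against untreated cells of the same time lay within 0.5 for 56 of 60 subunits with 1 µg/ml at 4 h, 56 with 10 µg/ml at 4 h, 57 with 1 µg/ml at 24 h and 54 with 10 µg/ml at 24 h. The same limit held 55.5%, 53.8%, 69.2% and 53.8% of all 11866 genes tested in those comparisons. Among the 8388 genes with a mean of at least 10 CPM it held 62.5%, 60.8%, 77.5% and 60.6%, beside 54, 54, 55 and 51 of the 57 subunits at that level. In 40 subunits no LTA comparison passed the test, and in 2, NDUFV2 and NDUFA4, a log2 fold change reached 1. The matching shares of all genes tested were not counted, so whether these numbers are unusual cannot be read from them.

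**Figure D1:**
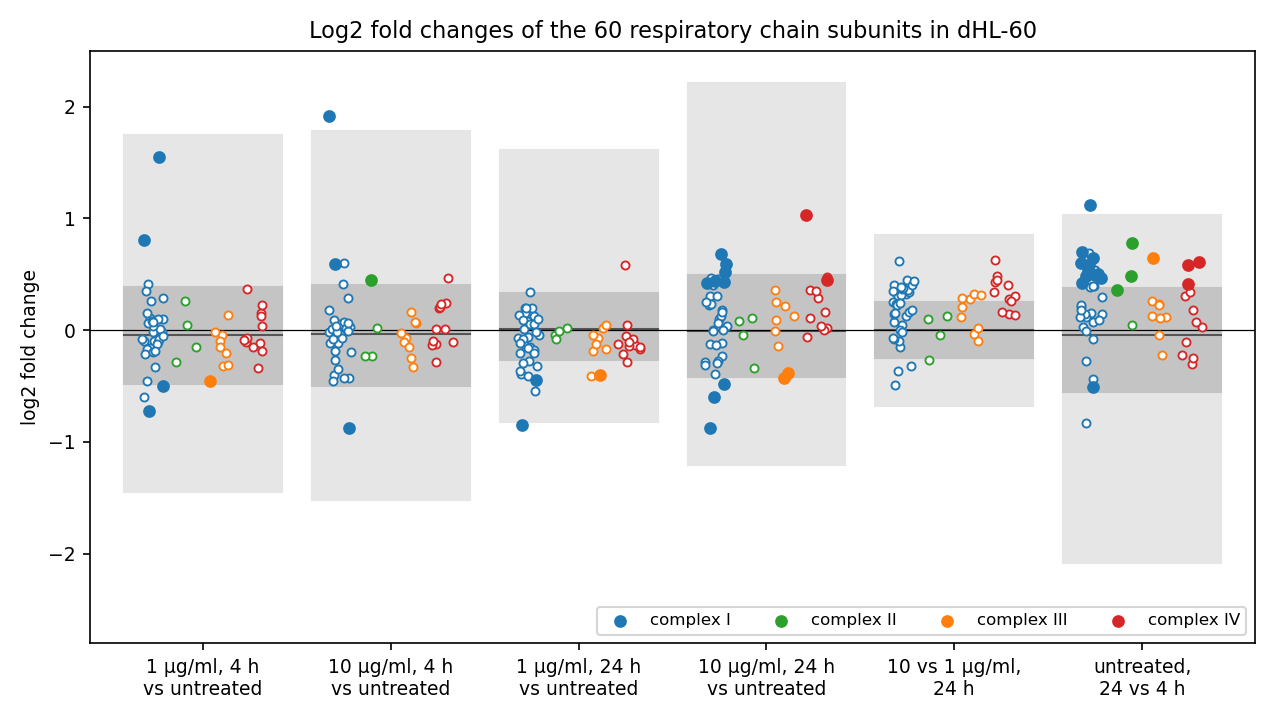
Log2 fold change (y axis) of each of the 60 subunits, 1 point each coloured by complex, in 6 comparisons within dHL-60 (x axis). Filled points passed the test, and behind them stand the median (line), the middle 50% (dark band) and the middle 90% (light band) of all genes tested. With LTA the points crowd around 0 apart from NDUFV2 at 4 h (1.55 and 1.92) and NDUFA4 at 24 h (1.03 with 10 µg/ml), while 48 of 60 lie above 0 in untreated cells between 4 and 24 h and in the 24 h dose comparison.

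Counted by edgeR's quasi-likelihood test at an adjusted p under 0.05, 1 µg/ml LTA at 4 h raised 2 subunits and lowered 3, where 18.7% of all genes tested rose and 20.1% fell. With 10 µg/ml at 4 h, 3 rose and 1 fell, against 20.0% and 21.3% of all genes. At 24 h, 1 µg/ml raised none and lowered 3, against 13.9% and 7.26% of all genes. There DESeq2 called 0 of the 60 higher and 4 lower, beside 1504 and 819 of 12120 genes. An unadjusted p under 0.05 in edgeR was found for 5 of 60, with no share of all genes counted. At 24 h 10 µg/ml raised 8 and lowered 5 by the adjusted edgeR test, against 23.6% and 19.0%. The median log2 fold change of the 60 was -0.08, 0.00, -0.09 and 0.11 in these 4 comparisons, beside -0.04, -0.04, 0.01 and -0.01 over all genes tested. No direction is read from these medians, since they changed sign in some alternatives: that of 10 µg/ml at 24 h was -0.04 without its first treated library and -0.06 with library totals alone, and without the first untreated library at 4 h those of 1 and 10 µg/ml were 0.11 and 0.16. The 2 doses at a time share their untreated libraries, so their counts are given side by side only. The counts at 4 h depended on the scaling: with library totals alone, which shifted the median of all genes by -0.28 and -0.32, they were 1 higher and 22 lower with 1 µg/ml and 1 higher and 24 lower with 10 µg/ml, and with upper-quartile scaling 2 higher and 8 lower, and 1 higher and 8 lower. At 24 h with 10 µg/ml they were 1 higher and 8 lower with totals alone and 4 higher and 7 lower with upper-quartile scaling. Of all 11866 genes tested, totals alone called 1350 higher and 4194 lower with 1 µg/ml at 4 h, and 1365 and 4635 with 10 µg/ml. So with totals alone the subunits were called lower at 4 h about as often as all genes. Upper-quartile scaling called 1805 and 3077, and 1868 and 3263, of all genes. For 10 µg/ml at 24 h all genes gave 2154 and 3169 with totals alone and 2484 and 2694 with upper-quartile scaling.

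**Figure D2:**
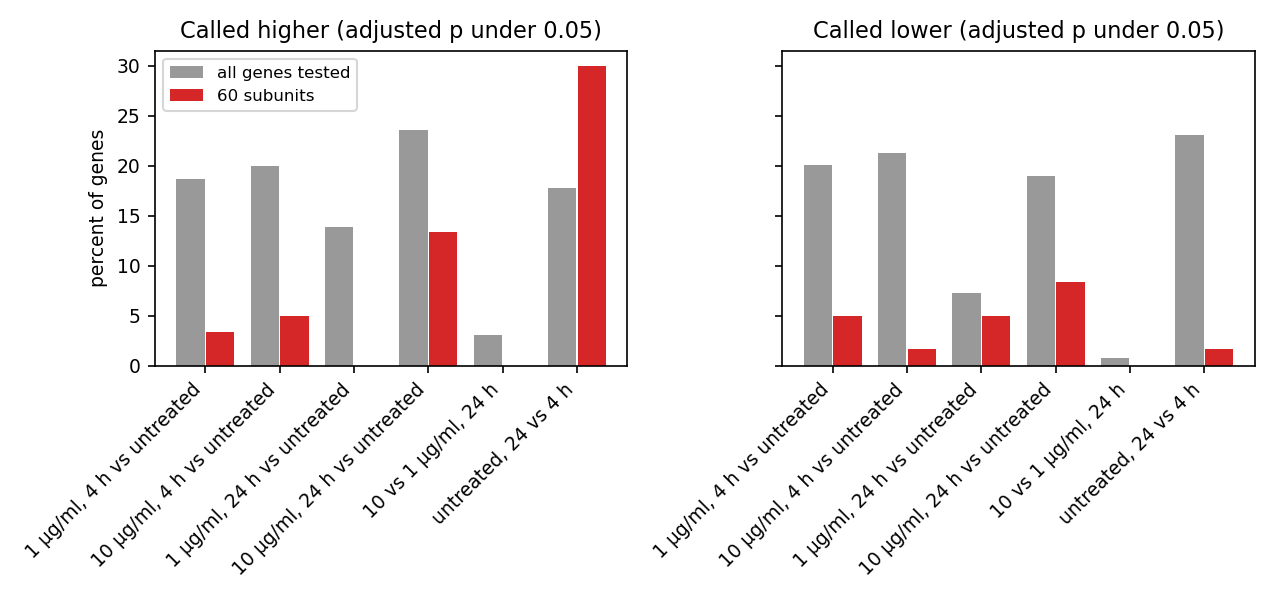
Percent of genes called higher (left panel) and lower (right panel) at an adjusted p under 0.05 in each comparison within dHL-60 (x axis), for all genes tested (grey bars) and the 60 subunits (red bars). The red bars are below the grey ones in all 4 LTA comparisons, and for untreated cells 18 of 60 subunits were called higher at 24 h than at 4 h beside 17.8% of all genes.

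Complex I takes electrons from NADH at its flavoprotein module, where NDUFV1 carries the flavin, and passes them along iron-sulfur clusters held by NDUFV1, NDUFV2, NDUFS1, NDUFS8 and NDUFS7. The gene with the largest fold change of all 60 was NDUFV2, but at very low levels. It stood at 2.76 and 1.93 CPM in untreated cells at 4 h, 8.10 and 5.73 with 1 µg/ml, and 11.6 and 6.07 with 10 µg/ml, from 23 to 118 counts a library. Both treated groups lay above the untreated one, by 1.55 ± 0.39 on the log2 scale (adjusted p = 0.00592, edgeR) with 1 µg/ml and 1.92 ± 0.38 (adjusted p = 0.00118) with 10 µg/ml. At 24 h all 6 libraries lay between 0.808 and 1.70 CPM, and the fold changes of -0.02 and 0.16 were not called. NDUFV2 (chr18:9102630-9134345, GRCh38, plus strand) shares 28.4% of its exon bases with AP005263.1 on the same strand, and it had 2821 to 3774 counts in each uHL-60 library, so its level in dHL-60 is uncertain.

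NDUFS1, the largest core subunit of complex I (chr2:206114817-206159603, minus strand), was at 90.4 and 80.4 CPM in untreated cells at 24 h, at 81.2 and 72.0 with 1 µg/ml and at 59.4 and 63.4 with 10 µg/ml. The lower dose overlapped the untreated pair and gave a log2 fold change that was not called, whereas 10 µg/ml lowered NDUFS1 by -0.48 ± 0.13 (adjusted p = 0.0108), a call that was lost without the first untreated 24 h library. NDUFV1 was at 238 and 188 CPM in untreated cells at 4 h and 289 and 313 at 24 h. Its log2 fold changes with LTA, -0.33, -0.35, -0.29 and -0.29 in the 4 comparisons, were not called (adjusted p 0.0568 to 0.15). NDUFS8, a core subunit with iron-sulfur clusters near the quinone site, was at 53.8 and 62.4 CPM in untreated cells at 24 h and at 106 and 68.9 with 10 µg/ml. It rose by 0.59 ± 0.22 (adjusted p = 0.0488), with the first treated library far above the other and a log2 fold change of 0.18 (adjusted p = 0.589) without it.

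Of the accessory subunits of complex I, NDUFB10 and NDUFA10 changed at different times. NDUFB10, a subunit of the membrane arm (chr16:1959508-1961975, plus strand), was at 104 and 74.2 CPM in untreated cells at 4 h, at 56.9 and 50.9 with 1 µg/ml and at 47.7 and 49.0 with 10 µg/ml. All 4 treated libraries lay below both untreated ones, and the log2 fold changes were -0.72 ± 0.16 (adjusted p = 0.00339) and -0.88 ± 0.16 (adjusted p = 0.000814). At 24 h its 6 libraries ran from 107 to 127 CPM (fold changes -0.04 and 0.01, not called). The call with 10 µg/ml at 4 h held under all alternatives run, and that with 1 µg/ml was lost without the first untreated library.

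NDUFA10, an accessory subunit of the membrane arm (chr2:239892450-240025402, minus strand), was at 61.5 to 71.1 CPM in all 6 libraries at 4 h. At 24 h it was at 103 and 99.2 CPM untreated, 74.0 and 74.5 with 1 µg/ml and 64.4 and 69.1 with 10 µg/ml. The treated libraries were all below the untreated ones, by -0.45 ± 0.12 (adjusted p = 0.0144) and -0.60 ± 0.12 (adjusted p = 0.00113). The 10 µg/ml call held under all alternatives run, with log2 fold changes from -0.76 to -0.57. NDUFA5, a subunit of the matrix arm (chr7:123536997-123558255, minus strand), was at 74.0 and 44.3 CPM in untreated cells at 24 h and at 27.4 and 37.2 with 10 µg/ml, a drop of -0.88 ± 0.25 (adjusted p = 0.0125). The 2 untreated libraries differed widely, and without the first of them the log2 fold change was -0.46 (adjusted p = 0.209).

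Of the accessory subunits of complex I, 5 were called higher with 10 µg/ml at 24 h. NDUFA1, which anchors in the membrane arm (chrX:119871487-119876662, plus strand), was at 22.9 and 26.9 CPM untreated and 46.9 and 33.2 with 10 µg/ml, up by 0.69 ± 0.20 (adjusted p = 0.014), and at 4 h it was at 33.2 and 27.2 CPM untreated and 36.8 and 54.1 with 10 µg/ml, up by 0.59 ± 0.20 (adjusted p = 0.0306). On the opposite strand, RNF113A covers 44.5% of its exon bases, and whether the counting used strand is not stated. NDUFA12 (0.53 ± 0.16, adjusted p = 0.0158), NDUFB3 (0.44), NDUFA6 (0.43) and NDUFB6 (0.42) also rose. At 4 h with 1 µg/ml, NDUFB4, another membrane arm subunit, rose from 53.7 and 35.7 CPM to 76.0 and 79.6 (0.80 ± 0.23, adjusted p = 0.0129), and NDUFC2 fell by -0.50 ± 0.18 (adjusted p = 0.0428). NDUFC1 fell with 1 µg/ml at 24 h, from 12.7 and 7.35 CPM to 5.80 and 5.44 (-0.85 ± 0.24, adjusted p = 0.0212), but not past the test with 10 µg/ml (-0.23). Each of these rests on few libraries. Without the first treated library NDUFA1 at 24 h was at 0.36 (adjusted p = 0.246) and NDUFA12 at 0.29 (adjusted p = 0.25), and without the second treated one NDUFA1 at 4 h was at 0.28 (adjusted p = 0.355). NDUFB4 was at 0.54 (adjusted p = 0.116) without the second untreated library at 4 h, NDUFC1 at -0.39 (adjusted p = 0.335) without the first at 24 h, and the call of NDUFC2 was lost without any one of its 4 libraries. In all, 6 of the 35 complex I subunits rose and 3 fell with 10 µg/ml at 24 h, with a median of 0.10.

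**Figure D3:**
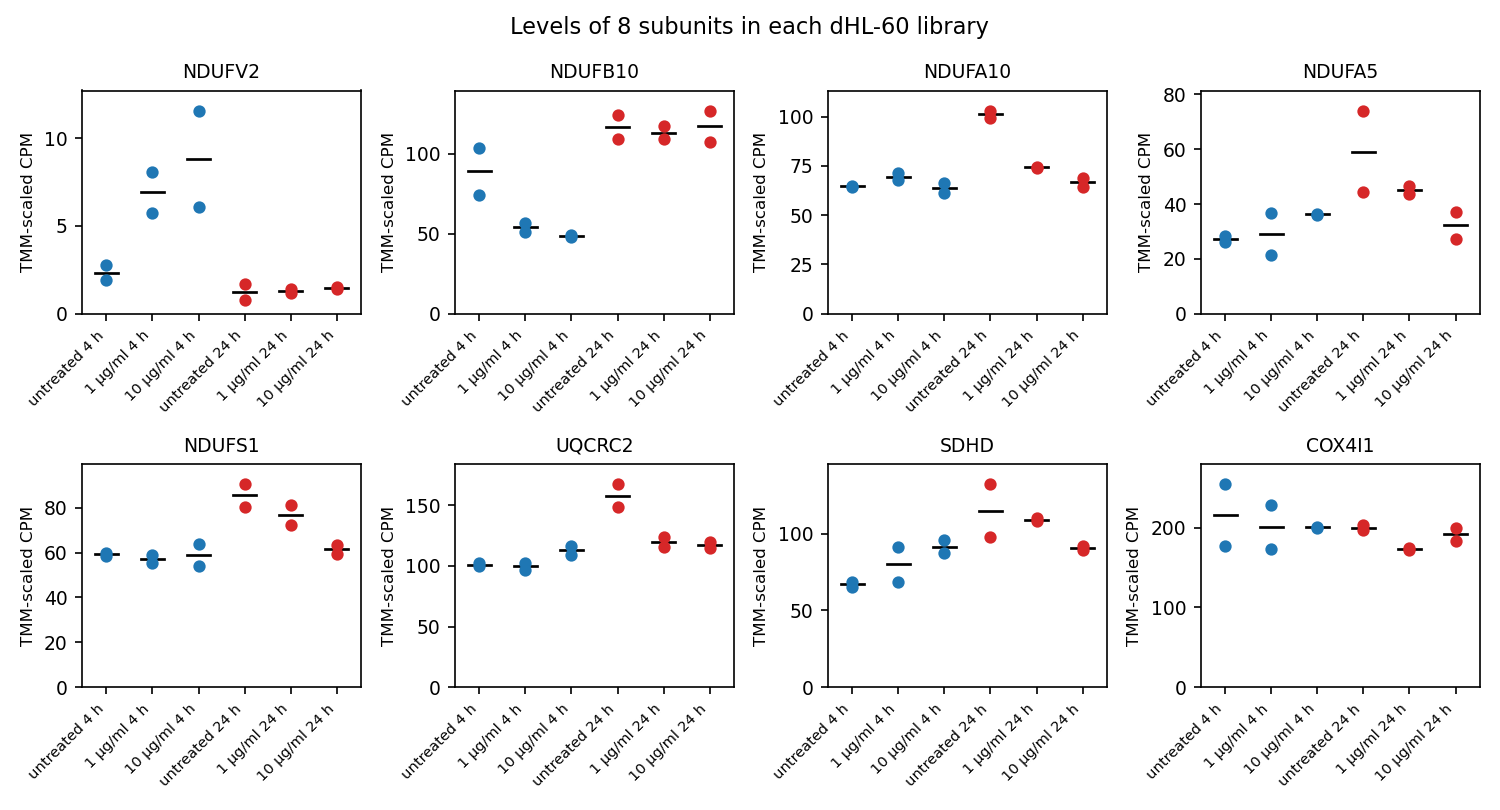
Levels in TMM-scaled CPM (y axis, from 0) of 8 subunits in each dHL-60 library (points, blue at 4 h and red at 24 h), by group (x axis), with the mean of each group as a line. NDUFV2 is highest in the 4 LTA libraries at 4 h (5.73 to 11.6 CPM), NDUFB10 is lowest in the same 4 (47.7 to 56.9 CPM), and NDUFA10 is high in the 2 untreated libraries at 24 h (103 and 99.2 CPM), while COX4I1 stays between 171 and 254 CPM.

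Complex II, succinate dehydrogenase, belongs to both the tricarboxylic acid cycle and the chain: SDHA carries the flavin, SDHB the iron-sulfur clusters, and SDHC and SDHD anchor it in the membrane. Among the 4, only SDHD was called with LTA, at 4 h with 10 µg/ml. SDHD (chr11:112086773-112120013, plus strand) was at 68.7 and 65.1 CPM untreated at 4 h, 68.8 and 91.5 with 1 µg/ml and 95.7 and 87.3 with 10 µg/ml, and rose by 0.45 ± 0.17 (adjusted p = 0.042) with the latter. The call was lost without any one of the 4 libraries compared, with adjusted p up to 0.188, and with totals alone (0.13, adjusted p = 0.568). SDHA, at 8.97 to 14.1 CPM in all 12 libraries, had log2 fold changes from -0.24 to 0.11, and SDHB, at 19.1 to 38.2 CPM, had -0.28 to 0.08, none called.

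Complex III passes electrons from ubiquinol to cytochrome c. Its core-type proteins UQCRC1 and UQCRC2 lie on the matrix side, and UQCRFS1 is the Rieske iron-sulfur protein. UQCRC2 (chr16:21952660-21983660, plus strand) fell in both 24 h comparisons. It was at 167 and 149 CPM untreated, 116 and 124 with 1 µg/ml and 120 and 115 with 10 µg/ml, and the log2 fold changes were -0.40 ± 0.12 (adjusted p = 0.0297) and -0.43 ± 0.12 (adjusted p = 0.0107). Both treated pairs lay below both untreated libraries, and untreated cells at 4 h were at 102 and 99.7 CPM. UQCRH, the hinge protein, fell by -0.39 ± 0.15 with 10 µg/ml at 24 h (adjusted p = 0.0462), and UQCR10 fell by -0.45 ± 0.17 with 1 µg/ml at 4 h (adjusted p = 0.0494), or by -0.19 (adjusted p = 0.467) without the first untreated library. UQCRC1, at 141 to 249 CPM, and UQCRFS1, at 99.2 to 146 CPM, had log2 fold changes between -0.12 and 0.25 in the 4 comparisons and were not called. NDUFA10 and UQCRC2 were the 2 subunits called lower with both doses at 24 h, and in each the 1 µg/ml call was lost without the first untreated library or either treated one. The 10 µg/ml call of UQCRC2 was also lost without the first untreated library (-0.34, adjusted p = 0.0975) and without the second treated one (-0.40, adjusted p = 0.0639).

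Complex IV, cytochrome c oxidase, holds COX4I1 and COX5A among its first assembled nuclear subunits, and its isoforms mark tissues. COX4I1 was at 171 to 254 CPM in the 12 libraries, with log2 fold changes of -0.10, -0.10, -0.21 and -0.06 that were not called. The widely expressed isoforms carried the counts: COX6A1 (63.8 to 99.8 CPM), COX6B1 (73.8 to 143 CPM), COX7A2 (37.4 to 76.3 CPM) and COX8A (98.1 to 186 CPM), while COX6B2 and COX8C had 1 count each over the 12 libraries. With 10 µg/ml at 24 h, 10 of the 12 had a log2 fold change above 0, with a median of 0.23, but 2 were called, NDUFA4 and COX7A2. COX7A2 went from 52.5 and 53.0 CPM to 76.3 and 68.0 (0.45 ± 0.15, adjusted p = 0.0314), and by 0.30 (adjusted p = 0.248) without the first treated library. COX8A had 0.48 ± 0.19 (adjusted p = 0.0611), COX6B1 0.35, COX6A1 0.29 and COX7A2L, a factor of supercomplex assembly related to COX7A2, 0.00.

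NDUFA4 and its paralog C15orf48 moved by very different amounts. C15orf48, also known as a protein that replaces NDUFA4 in complex IV of inflamed cells, is not among the 60 by name and was followed as its paralog. Their promoters are shown because the pair was set side by side: RefSeq windows of GRCh38.p14, from 250 bases before the start site through the first 10 after it, 5′ to 3′ on the gene's strand. Both are in lower case throughout because none of the searched cores of the factors NRF1 (GCGCATGC), ETS (CCGGAAG), YY1 (AAGATGG) and NF-κB (GGANTTTCC) was found on either strand. The windows are chr7:10940144-10940403, minus strand, for NDUFA4 and chr15:45430360-45430619, plus strand, for C15orf48.
NDUFA4: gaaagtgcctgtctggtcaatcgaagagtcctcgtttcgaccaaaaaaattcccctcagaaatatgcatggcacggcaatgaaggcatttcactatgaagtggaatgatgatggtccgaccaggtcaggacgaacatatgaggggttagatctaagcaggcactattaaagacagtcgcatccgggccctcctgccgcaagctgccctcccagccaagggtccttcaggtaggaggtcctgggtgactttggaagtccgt
C15orf48: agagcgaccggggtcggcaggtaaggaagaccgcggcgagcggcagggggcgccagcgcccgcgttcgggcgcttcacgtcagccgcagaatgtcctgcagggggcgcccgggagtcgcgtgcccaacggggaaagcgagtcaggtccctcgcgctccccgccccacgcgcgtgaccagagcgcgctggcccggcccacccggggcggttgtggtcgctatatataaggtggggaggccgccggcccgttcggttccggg
No match says only that these letters are not in this window. The Sp1 box GGGCGG was searched too and is not in capitals: the window through 50 bases after the start site held 3 in C15orf48 and 0 in NDUFA4.

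C15orf48 (chr15:45430529-45448761, GRCh38) was at 40.0 and 33.9 CPM in untreated dHL-60 at 4 h, 330 and 314 with 1 µg/ml and 404 and 369 with 10 µg/ml. At 24 h it was at 0.586 and 0.147 CPM untreated (11 and 2 counts), 11.9 and 8.98 with 1 µg/ml and 40.7 and 35.3 with 10 µg/ml. No treated library overlapped the untreated ones of its time. The log2 fold changes were 3.12 ± 0.19 and 3.39 ± 0.19 at 4 h (adjusted p = 6.86e-08 and 3.48e-08, edgeR) and 4.67 ± 0.33 and 6.54 ± 0.30 at 24 h (adjusted p = 5.65e-07 and 6.31e-09), and all 4 were called under each of the alternatives run. In the uHL-60 libraries it had 1 to 6 counts.

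NDUFA4 (chr7:10931951-10940256, GRCh38) was at 46.2 to 88.3 CPM in the 6 libraries at 4 h, with log2 fold changes of -0.15 and 0.23 that were not called. At 24 h it was at 53.7 and 45.9 CPM untreated, 88.8 and 60.6 with 1 µg/ml and 85.7 and 118 with 10 µg/ml. The log2 fold change of 0.58 with 1 µg/ml was not called (adjusted p = 0.152), and that of 1.03 ± 0.27 with 10 µg/ml was (adjusted p = 0.00813). Without the second untreated library it was 0.92 (adjusted p = 0.062), and without the second treated one 0.78 (adjusted p = 0.0629). Per kilobase of exon, the ratio of C15orf48 to NDUFA4 was 1.44 and 1.86 in untreated cells at 4 h, 15.9 and 15.3 with 1 µg/ml, and 11.6 and 19.3 with 10 µg/ml. At 24 h the ratio was 0.0276 and 0.0081 untreated, 0.338 and 0.375 with 1 µg/ml, and 1.2 and 0.758 with 10 µg/ml. The exon lengths used were 3556 bases for NDUFA4 and 1405 for C15orf48, of which 20.9% are shared with AC025580.2 and MIR147B on the same strand. Another paralog, NDUFA4L2, was not called with LTA and had 3 to 35 counts in a dHL-60 library.

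**Figure D4:**
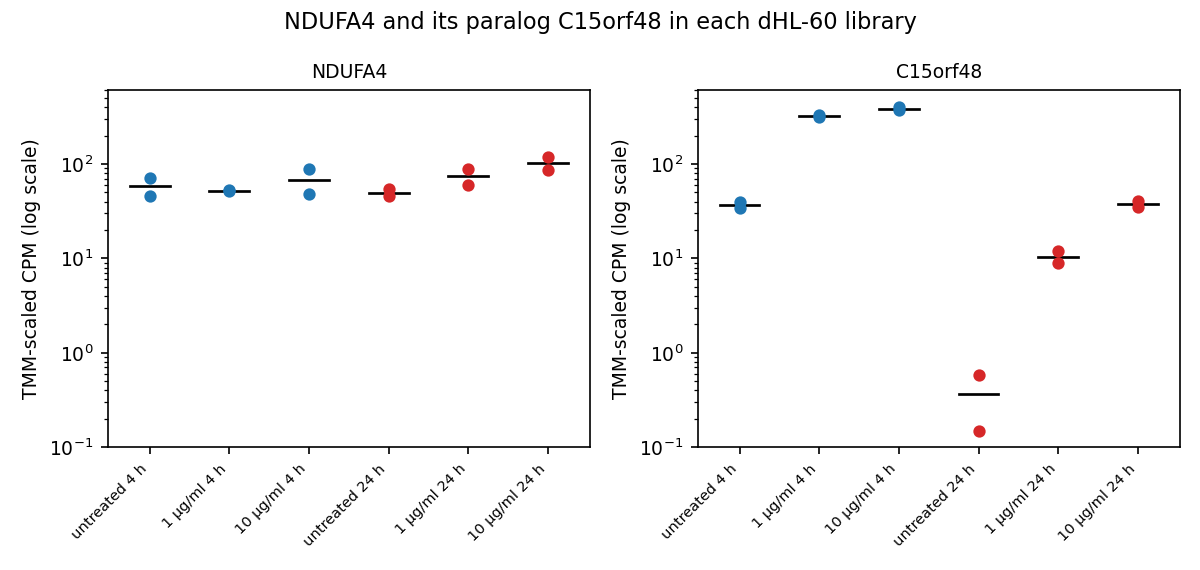
TMM-scaled CPM on a log axis of NDUFA4 (left panel) and C15orf48 (right panel) in each dHL-60 library (points), by group (x axis), with group means as lines. NDUFA4 stays between 45.9 and 118 CPM, and C15orf48 runs from 0.147 CPM in an untreated library at 24 h to 404 CPM with 10 µg/ml at 4 h.

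Between the doses, 10 against 1 µg/ml LTA, none of the 60 subunits was called by edgeR in either direction at either time. At the same adjusted threshold, 0.00843% of all genes were called higher and 0% lower at 4 h, and 3.03% and 0.792% at 24 h. DESeq2 called 2 of the 60 higher at 24 h and 0 at 4 h, beside 546 of 10463 genes at 24 h and 2 of 17090 at 4 h. At an unadjusted p under 0.05, 1 subunit, NDUFA1, passed at 4 h and 11 passed at 24 h. The share of all genes at that looser threshold was not counted, so counts at it cannot be read against a background. The 24 h log2 differences lay above 0 for 48 of 60 (50.2% of all genes), with a median of 0.24 against 0.00 over all genes, which was 0.10 without the first 10 µg/ml library and 0.09 with library totals alone. All 12 complex IV subunits were above 0 there, with a median of 0.32 and a range from 0.14 to 0.63, and 5 of them passed the unadjusted threshold. The largest were COX8A, at 98.1 and 108 CPM with 1 µg/ml and 186 and 131 with 10 µg/ml (0.63 ± 0.19, adjusted p = 0.0911), and COX5B, at 124 and 147 and at 180 and 200 CPM (0.49 ± 0.15, adjusted p = 0.0948). C15orf48 rose between the doses at 24 h by 1.87 ± 0.19 (adjusted p = 0.000295).

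Untreated dHL-60 cells differed between 4 and 24 h in 19 of the subunits. At 24 h 18 of the 60 were called higher and 1 lower than at 4 h, beside 17.8% and 23.1% of all genes. Log2 fold changes were above 0 in 48 subunits, 80.0%, against 47.4% of all genes, and the median was 0.23 against -0.04, or 0.12 and 0.44 without the second and the first library at 4 h. By complex, 11 of 35 in complex I, 3 of 4 in II, 1 of 9 in III and 3 of 12 in IV rose, and NDUFA2 fell by -0.51 ± 0.19 (adjusted p = 0.0453), or by -0.16 (adjusted p = 0.551) without the first library at 4 h. Without single untreated libraries the counts were between 8 and 22 higher: 8 without the second library at 4 h, and 8 without the first at 24 h. In the same cells the summed neutrophil genes went from 5994 to 7145 CPM down to 1771 to 1914, and the promyelocyte genes from 10007 to 11939 CPM up to 19416 to 24989. By gene, edgeR called all 10 neutrophil genes lower, and 3 of the 7 promyelocyte genes higher and 0 lower. The part of these markers in the difference over time was not tested.

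The members that rose most over time were NDUFA5, from 26.1 and 28.4 CPM to 74.0 and 44.3 (1.12 ± 0.25, adjusted p = 0.00342), SDHD, from 68.7 and 65.1 to 132 and 97.5 (0.78 ± 0.16, adjusted p = 0.00208), NDUFB6 (0.70 ± 0.17, adjusted p = 0.00451) and UQCRC2 (0.65 ± 0.12, adjusted p = 0.000866). NDUFA10 rose by 0.64 ± 0.12 (adjusted p = 0.000752) and COX5A, from 46.1 and 47.1 CPM to 72.5 and 69.4, by 0.61 ± 0.14 (adjusted p = 0.0038). Core subunits were among them: NDUFS1 rose by 0.53 ± 0.13 (adjusted p = 0.00635), NDUFV1 by 0.50 ± 0.14 (adjusted p = 0.0104) and SDHB by 0.49 ± 0.15 (adjusted p = 0.0199). COX4I1 (-0.11), UQCRC1 (0.26), UQCRFS1 (0.24) and SDHA (0.04) were not called. The untreated 24 h libraries are the same that the 24 h LTA comparisons use, so the time and LTA values of NDUFA10, NDUFA5, NDUFS1 and UQCRC2 share them, and the calls of NDUFA5 and NDUFS1 over time were lost without the first untreated library at 24 h, as was that of SDHB, while those of SDHB and NDUFV1 were lost without the second at 4 h.

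Of the 18 members that rose over time 15 have a promoter window, and 6 of these hold the core of NRF1, a transcription factor known to act on respiratory chain genes. Of the 6, COX5B, SDHD and NDUFA5 are printed to show where it lies. Capitals mark the cores of NRF1 (GCGCATGC), ETS (CCGGAAG) and YY1 (AAGATGG), on either strand. Windows run from 250 bases before the start site through 10 after it, from RefSeq on GRCh38.p14: chr2:97645812-97646071, plus strand, for COX5B, chr11:112086623-112086882, plus strand, for SDHD, and chr7:123557809-123558068, minus strand, for NDUFA5.
COX5B: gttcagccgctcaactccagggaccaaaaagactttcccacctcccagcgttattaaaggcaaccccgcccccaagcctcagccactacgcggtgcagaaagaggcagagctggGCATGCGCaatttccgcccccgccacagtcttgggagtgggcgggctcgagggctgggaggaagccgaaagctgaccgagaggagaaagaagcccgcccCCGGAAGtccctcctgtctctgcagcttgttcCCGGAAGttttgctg
SDHD: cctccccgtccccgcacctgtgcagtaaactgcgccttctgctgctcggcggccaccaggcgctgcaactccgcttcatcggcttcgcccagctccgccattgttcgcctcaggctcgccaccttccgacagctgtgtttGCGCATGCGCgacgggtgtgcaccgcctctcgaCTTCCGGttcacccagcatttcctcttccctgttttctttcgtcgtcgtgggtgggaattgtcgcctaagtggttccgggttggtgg
NDUFA5: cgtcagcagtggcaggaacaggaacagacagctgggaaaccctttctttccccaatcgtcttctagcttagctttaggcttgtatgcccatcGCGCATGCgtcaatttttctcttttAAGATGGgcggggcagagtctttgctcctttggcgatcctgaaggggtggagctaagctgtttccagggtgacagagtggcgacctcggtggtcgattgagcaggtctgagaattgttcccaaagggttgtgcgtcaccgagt
In COX5B the NRF1 core begins at base -136 from the start site and ETS cores at -37 and -5. In SDHD overlapping NRF1 cores on both strands begin at -110 and -108 and an ETS core at -77, and in NDUFA5 the NRF1 core begins at -158 and a YY1 core at -133. NDUFA5 has 3 windows, and the other 2, at chr7:123601602-123601901 and chr7:123601562-123601861, hold none of the motifs searched. Windows from 250 before to 50 after the start site were found for 51 of the 60, a gene being counted where any of its windows holds a motif, and in these the NRF1 core was in 10 (19.6%), against 6.59% of 9465 tested genes with a window and 3.68% of 27305 genes in all. The ETS core was in 15 (29.4%, against 23.0% and 12.2%), the YY1 core in 12 (23.5%, against 9.78% and 7.11%) and the Sp1 box GGGCGG in 31 (60.8%, against 75.4% and 48.3%). The NF-κB motif GGANTTTCC was in 1 subunit, UQCRC2, and in 2.31% of tested genes. The other members with the NRF1 core were NDUFA8, NDUFS7 and SDHB, which also rose over time, and COX6A1, NDUFA6, NDUFB4 and NDUFS6, which were not called over time. The other windows were not analysed here. A match is a run of letters and not a shown binding site.

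The response to LTA at 24 h minus that at 4 h was tested as an interaction. With 10 µg/ml, the difference was called above 0 for 4 subunits and below 0 for 5, against 19.7% and 14.0% of all genes. Those above 0 were NDUFS8 (1.04 ± 0.32, adjusted p = 0.0237), NDUFB10 (0.88 ± 0.23, adjusted p = 0.00964), NDUFS7 (0.68 ± 0.23, adjusted p = 0.0352) and COX5B (0.65 ± 0.22, adjusted p = 0.0357). Those below 0 were NDUFV2 (-1.75), NDUFA5 (-1.28), SDHD (-0.79), UQCRC2 (-0.59) and NDUFA10 (-0.58), with adjusted p from 0.0148 to 0.0363. With 1 µg/ml, NDUFB10 was above 0 (0.68 ± 0.23, adjusted p = 0.0495) and NDUFA10 below 0 (-0.55 ± 0.17, adjusted p = 0.032), against 13.3% and 7.41% of all genes. With totals alone the counts with 10 µg/ml were 12 above and 1 below 0, and without the first untreated library at 24 h they were 1 and 0.

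Genes that serve the chain were followed in lists, whose medians can be read against the medians over all genes given above. Their counts can be read against the shares of all genes called in the comparisons of 1 and 10 µg/ml at 4 h and 1 and 10 µg/ml at 24 h: 18.7%, 20.0%, 13.9% and 23.6% higher, and 20.1%, 21.3%, 7.26% and 19.0% lower. Cytochrome c itself, CYCS, rose with LTA at 4 h, from 84.9 and 88.6 CPM to 162 and 239 with 1 µg/ml (1.21 ± 0.22, adjusted p = 0.000719) and 260 and 231 with 10 µg/ml (1.5 ± 0.22, adjusted p = 0.000126), and at 24 h was not called (-0.12 and -0.47). CYC1, the heme subunit of complex III, rose by 0.42 and 0.51 at 4 h (adjusted p = 0.0249 and 0.00893). CYCS, CYC1 and NDUFAB1, the acyl carrier protein of complex I, all rose over time in untreated cells, by 1.71, 0.73 and 0.97.

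Of 10 assembly factors for complexes II and III, 7, 6, 3 and 5 fell (70%, 60%, 30% and 50%) and none rose in the comparisons of 1 and 10 µg/ml at 4 h and 1 and 10 µg/ml at 24 h, with medians of -0.75, -0.62, -0.35 and -0.34. Among them SDHAF3 fell by -1.05, -0.78 and -0.82 (adjusted p = 0.00815, 0.0319 and 0.0132) except with 1 µg/ml at 24 h (-0.45, not called), and SDHAF4, which helps put the flavin-bearing SDHA into the complex, fell by -0.88 and -1.05 at 4 h. Of 25 factors for complex IV, 5, 8, 3 and 5 fell (20%, 32%, 12% and 20%) and 1, 2, 1 and 2 rose (4% to 8%), with medians of -0.21, -0.22, -0.20 and -0.08. COX17, a copper chaperone, was the one that rose in every comparison, by 0.85, 0.87, 0.55 and 1.09 (adjusted p from 0.000101 to 0.0234), and LRPPRC, which stabilises mitochondrial mRNA, fell at 24 h by -0.52 and -1.10 (adjusted p = 0.0186 and 4.65e-05). Of 16 factors for complex I, 2, 2, 0 and 0 rose and 2, 1, 1 and 2 fell (at most 12.5% in either direction), with medians of -0.15, -0.02, -0.17 and -0.27, and NDUFAF6 was up by 0.98 and 1.27 at 4 h.

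Of 13 regulators of mitochondrial biogenesis tested, 3 and 3 rose and 3 and 5 fell at 4 h, and 0 and 0 rose and 0 and 5 fell at 24 h, with medians of 0.02, 0.14, -0.03 and -0.38. GABPB1, a subunit of an ETS-family activator, rose at 4 h by 1.18 and 1.46 (adjusted p = 5.9e-05 and 8.35e-06), and TFAM, a factor that binds mitochondrial DNA, by 0.52 and 0.60. The coactivator PPARGC1B fell at 4 h by -0.83 and -0.82, and by -0.998 with 10 µg/ml at 24 h. POLRMT, the RNA polymerase of mitochondria, was lower with LTA at 4 h. It was at 102.5 and 83.85 CPM untreated, 48.2 and 45.87 with 1 µg/ml and 38.78 and 43.71 with 10 µg/ml. Mitochondrial ribosomal proteins had 3 and 8 higher and 22 and 18 lower of 76 at 4 h, then 1 and 11 higher and 1 and 11 lower at 24 h, and in untreated cells 39 of 76 (51.3%) rose over time and none fell, beside 17.8% and 23.1% of all genes. Their LTA medians were -0.25, -0.24, -0.13 and -0.07. Cytosolic ribosomal proteins had 1 higher in each LTA comparison and 1, 0, 22 and 10 lower of 82, with medians of -0.12, -0.05, -0.43 and -0.24. Import machinery had 12 of 16 genes (75%) higher over time in untreated cells, and with LTA 1, 2, 0 and 0 rose and 2, 1, 1 and 2 fell, with medians from -0.16 to -0.05.

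Glycolysis genes rose at 24 h: 13 of 18 (72.2%) were called higher with 1 µg/ml and 14 (77.8%) with 10 µg/ml, and none fell, with medians of 0.70 and 0.84. The glucose transporter SLC2A3 rose by 1.35, 1.38, 2.49 and 2.69 in the 4 comparisons. At 4 h 4 and 4 of the 18 rose and 3 and 2 fell. Of 14 enzymes of the tricarboxylic acid cycle, 2, 2, 2 and 3 rose and 1, 1, 0 and 3 fell, with medians from -0.11 to -0.02. Of 9 genes in a hypoxia list, 3, 4, 4 and 5 rose and none fell, with medians from 0.33 to 0.67. Beside genes that act on respiration, such as PDK1, the list holds HIF1A itself and the secreted factors ADM and VEGFA. With 1 µg/ml at 4 h, HIF1A went from 31.15 and 39.74 CPM to 149.3 and 176.4, and PDK1 from 29.72 and 29.15 to 23.79 and 28.44. So the counts do not speak of genes that act on respiration alone. Of 8 mitochondrial antioxidant and uncoupling genes, 1, 2, 1 and 3 rose and 3, 3, 0 and 0 fell, and SOD2, the superoxide dismutase of the matrix, went from 275 and 255 CPM at 4 h to 2730 and 3577 with 1 µg/ml and 3607 and 3181 with 10 µg/ml, by 3.58 ± 0.24 and 3.68 ± 0.24 (adjusted p = 1.44e-07 and 1.02e-07). At 24 h SOD2 rose by 1.82 and 2.60. With 10 µg/ml at 24 h the summed neutrophil markers were 13668 to 14343 CPM against 1771 to 1914 untreated, and the promyelocyte markers 4871 to 6237 against 19416 to 24989, and their part in these changes was not tested. ATP synthase genes and the mitochondrially encoded subunits were not analysed here.

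Against uHL-60, most subunits were lower in untreated dHL-60. With 4 dHL-60 and 2 uHL-60 libraries and time as an additive term, 56 of 60 log2 ratios lay below 0, 29 were at least 2-fold lower and 1 at least 2-fold higher, where 17.4% of all genes were that much lower and 23.8% that much higher. The median was -0.89 against 0.01 over all genes, and by complex it was -0.85 for I, -1.59 for II, -0.51 for III and -1.48 for IV. The -0.89 pools times that differed: the median was -1.27 at 4 h and -0.63 at 24 h, each with 1 uHL-60 library. Over all genes it was 0.00 and 0.03. The members were selected on their level in dHL-60, 1 arm of this comparison. NDUFA7, left out by that level with a mean of 0.988 CPM, had a mean of 50.8 CPM in uHL-60. The state also cannot be told apart from any batch shared by all uHL-60 libraries. For both reasons this is a description with no test. COX5A was at 46.1, 48, 73.4 and 70.6 CPM in untreated dHL-60 and at 264 and 246 in untreated uHL-60, a log2 ratio of -2.17. SDHB was at 26.7, 23.4, 38.6 and 31.8 CPM against 134 and 124 (-2.15), COX7A2 at 48.1, 38.1, 53.2 and 54.0 against 226 and 195 (-2.16), and NDUFA4 at 70.3, 47.0, 54.4 and 46.7 against 222 and 175 (-1.88). In each of these the uHL-60 libraries lay above all dHL-60 ones. By contrast NDUFV1 (0.00), NDUFB10 (-0.05), COX7A2L (0.08), UQCRFS1 (-0.13) and COX4I1 (-0.23) were close to level, and NDUFV3 was higher in dHL-60 (0.61), at 41.7 to 47.1 CPM against 28.8 and 28.4.

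The largest ratios were those of 6 members. NDUFV2 (-6.64), NDUFA13 (-6.50), SDHA (-3.76), NDUFB8 (-3.46) and NDUFA9 (-2.69) were lowest in dHL-60, and UQCRHL, a near-identical copy of UQCRH, had 184 to 375 counts in a dHL-60 library and 0 or 1 in a uHL-60 library. Over all genes, the median log2 ratio was 0.04 for 9711 genes with no exon base shared on their strand, -0.38 for 688 with over 10% to 50% shared, -3.38 for 159 with over 50% to 90% and -8.87 for 52 with over 90%. How each set was counted is not stated in those sources, and the cause was not tested. Setting aside 14 subunits with shared exons or near-identical copies, 18 of the other 46 were at least 2-fold lower in dHL-60, none was 2-fold higher, 43 lay below 0 and the median was -0.78. The 46 still include subunits with pseudogene copies by name. Among members with at most 10% of exon bases shared, 5 of 21 with no such copy were at least 2-fold lower (median -0.58). With 1 to 3 copies it was 11 of 19 (median -1.22), and with 4 or more 4 of 9 (median -0.85). The part of copies in these ratios was not tested.

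**Figure D5:**
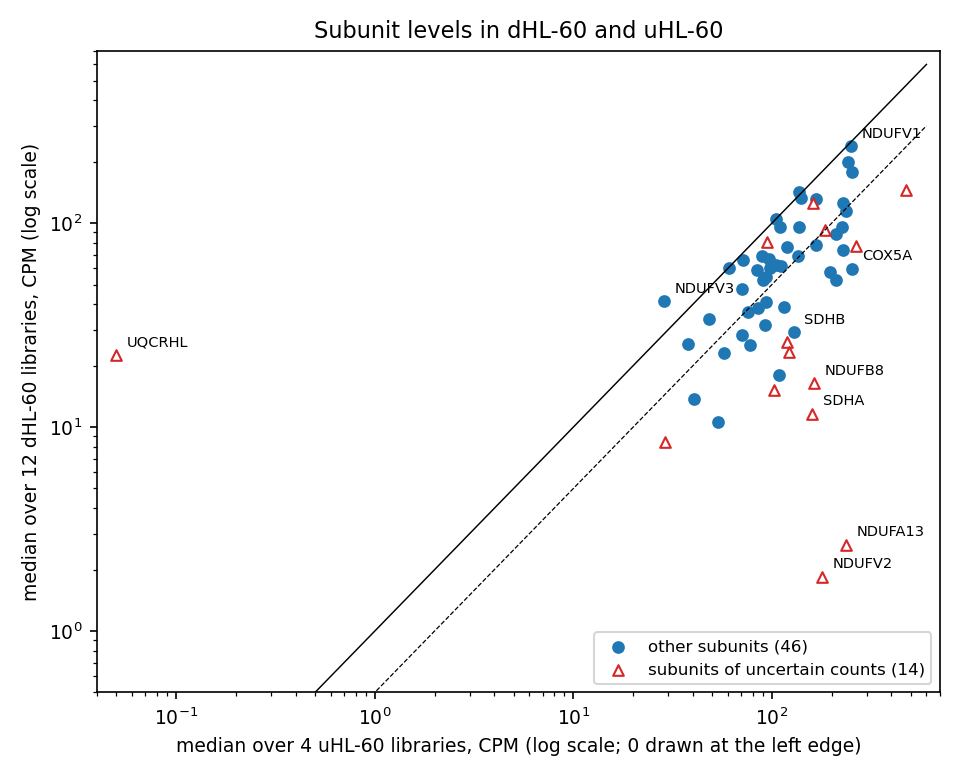
Median CPM over 12 dHL-60 libraries (y axis) against the median over 4 uHL-60 libraries (x axis), both on log axes, for the 60 subunits. Open symbols are the 14 with uncertain counts, and the solid line marks equal levels and the dashed one levels 2-fold lower in dHL-60, with NDUFV2 and NDUFA13 far below it and UQCRHL, listed at a median of 0 in uHL-60, at the left edge.

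LTA at 1 µg/ml left the subunits of uHL-60 close to their untreated levels. With 1 library a group there is no replicate check, and the log2 ratios to untreated cells ran from -0.43 to 0.13 at 4 h, with a median of -0.01 and 28 of 60 above 0, and from -0.36 to 0.27 at 24 h, with a median of 0.01 and 34 above 0. Over 11124 genes the medians were -0.02 and 0.00. UQCRHL, with 0 or 1 count in these libraries, was lowest at 4 h, and at 24 h NDUFS7 was lowest (-0.36) and NDUFA5 highest (0.27).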

How the data were processed

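RNA was measured in 16 libraries, 12 of dHL-60 (6 groups of 2) and 4 of uHL-60 (4 groups of 1), made with a stranded mRNA kit per the labels' protocols. The table the authors deposited holds counts, whole reads for each gene symbol in each library, not normalized. GRCh38, DESeq2 1.28.0, edgeR 3.36.0, featureCounts 2.0.1 (Subread), HISAT2 2.1.0 and fastp 0.20.0 are listed, per the submitters' processing notes, and whether reads were counted by strand is not stated in the sources used here. Total counts per library ran from 9653374 to 20157081, and the counts were used as deposited. The uHL-60 columns follow the symbols sorted as plain characters and were realigned (correlation with the dHL-60 mean 0.25 before and 0.90 to 0.91 after), a step chosen with the data seen.

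Differences within dHL-60 were tested over all 12 libraries with edgeR 4.0.16 (R 4.3.3), two-sided quasi-likelihood F test, TMM scaling, filterByExpr (11866 genes, all 60 subunits among them) and Benjamini-Hochberg adjustment at 0.05 over all genes tested. Fold changes are log2 ± SE, and levels are CPM of TMM-scaled counts, over 12 libraries or, beside uHL-60, over 16, except that marker sums and the level threshold of the members use CPM of library totals without TMM factors. DESeq2 1.42.0, RLE, upper-quartile or no scaling factors, no filter, a replicate block, only the libraries compared, a mean of at least 10 CPM and leaving out each library were alternatives, and leaving out members of uncertain counts was added after seeing the data. Replicate pairs differed by more than sampling noise (chi-square per degree of freedom 10.31 to 18.91). Tests were tried on simulated counts. Exon overlaps and coordinates come from GENCODE annotation on GRCh38, promoters from RefSeq. Genes named are the called members with the largest change (up to 4 in each direction and comparison), central subunits of each complex, tissue isoforms and NDUFA4 paralogs, the members nearest the level threshold, and up to 2 called genes per list, direction and comparison; the other genes named were chosen after their values were seen. The members, lists and tests were chosen with earlier results of these data known. Marker lists covered neutrophils, promyelocytes, macrophages, eosinophils or basophils, lymphocytes, and red cells or platelets.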

Additional observations from a re-analysis of the deposited data

Results flagged for a closer look

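These results differed between the times by the interaction test in edgeR, given as the LTA response at 24 h minus that at 4 h on the log2 scale. With 1 µg/ml, the members NDUFB10 (0.68, adjusted p = 0.0495) and NDUFA10 (-0.55, adjusted p = 0.032) differed. Of the genes that serve the chain, the difference was above 0 for C15orf48 (1.55, adjusted p = 0.0194) and SLC2A3 (1.14) and below 0 for CYCS (-1.33), GABPB1 (-1.08), NDUFAF6 (-1.48) and SOD2 (-1.76), with adjusted p up to 0.00757 for these 5.

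With 10 µg/ml, the members with a difference above 0 were NDUFS8 (1.04), NDUFB10 (0.88), NDUFS7 (0.68) and COX5B (0.65), and those below 0 were NDUFV2 (-1.75), NDUFA5 (-1.28), SDHD (-0.79), UQCRC2 (-0.59) and NDUFA10 (-0.58). The calls of NDUFA5 and NDUFS8 rest on pairs that differ widely, the untreated libraries of NDUFA5 and the treated ones of NDUFS8 at 24 h. The difference was above 0 for C15orf48 (3.16, adjusted p = 6.61e-05), SLC2A3 (1.31, adjusted p = 0.000705) and SDHAF4 (1.09, adjusted p = 0.0398), whose log2 fold change was -1.05 at 4 h and 0.04 at 24 h, the latter not called. It was below 0 for CYCS (-1.97), NDUFAF6 (-1.66), GABPB1 (-1.42), SOD2 (-1.08), TFAM (-0.98) and LRPPRC (-0.96), with adjusted p from 0.000353 to 0.0156. LRPPRC had a log2 fold change of -0.14 at 4 h, not called, and -1.10 at 24 h. For SOD2 and C15orf48 the untreated levels themselves fell between 4 and 24 h.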

How the results depend on the processing

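Single genes were followed in the alternatives only where named by rule, so not every called member was. Among those followed, no called result changed sign in any alternative run. Some medians over the members that lie near 0 did change sign, and others moved. Library totals alone gave medians of -0.06 for 10 µg/ml at 24 h (0.11 as reported), -0.35 and -0.32 for 1 and 10 µg/ml at 4 h (-0.08 and 0.00), and 0.20 for the 1 µg/ml interaction (-0.05). Without the first untreated library at 4 h the median was 0.11 for 1 µg/ml and 0.16 for 10 µg/ml at 4 h, 0.44 over time and -0.05 for the 10 µg/ml interaction (0.13), and without the second it was -0.19 for 10 µg/ml at 4 h and 0.13 for the 1 µg/ml interaction. Without the first 10 µg/ml library at 24 h it was -0.04 for that comparison and -0.02 for the 10 µg/ml interaction. Of the counts over the members and the medians that involve uHL-60, 315 alternative values stayed close to the reported one and 97 did not. Of single genes and the other medians 3369 stayed, 189 lost their call and 63 gained one. The other 6 were medians that moved by at least the median SE of the members' log2 fold changes. Single genes uncalled both times were counted as staying, whatever their size or sign. Counts are given as members higher and lower. Upper-quartile scaling gave 8 lower for 1 µg/ml at 4 h, 1 and 8 for 10 µg/ml at 4 h and 4 higher for 10 µg/ml at 24 h. RLE scaling gave 5 higher for 10 µg/ml at 4 h, 2 lower over time and 0 higher in the 1 µg/ml interaction. Library totals alone gave 1 and 22, 1 and 24 at 4 h, 1 and 8 for 10 µg/ml at 24 h, 0 lower over time, and 3 and 0, and 12 and 1, in the interactions with 1 and 10 µg/ml. With totals alone, all genes split 1350 higher and 4194 lower, and 1365 and 4635, at 4 h, and 2154 and 3169 for 10 µg/ml at 24 h, against 2214 and 2380, 2379 and 2524, and 2797 and 2259 as reported. DESeq2 gave 5 higher for 10 µg/ml at 4 h, 2 higher for dose at 24 h and 0 higher in the 1 µg/ml interaction. With no filter on low counts there were 5 lower for 1 µg/ml at 4 h, 5 and 4 for 10 µg/ml at 4 h, 1 higher for 1 µg/ml at 24 h, 2 higher for dose at 24 h, 3 and 3 in the 1 µg/ml interaction and 7 higher in the 10 µg/ml one. With only the libraries compared there were 1 lower and 5 higher at 4 h with 1 and 10 µg/ml, 1 and 5 for 1 µg/ml at 24 h, 1 higher for dose at 24 h, 0 lower over time and 0 higher in the 1 µg/ml interaction. Members of at least 10 CPM gave 1 higher for 1 µg/ml at 4 h. Without members of uncertain counts, chosen after seeing the data, there was 1 higher at each dose at 4 h, 3 lower in the 10 µg/ml interaction, and 18 lower and 0 higher by 2-fold against uHL-60.

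The replicate block gave 3 lower over time and 2 lower in the 1 µg/ml interaction and moved no other count past 1.5 times. Under it UQCR10 with 1 µg/ml at 4 h had an adjusted p of 0.0537. Whether libraries with the same number share more than the number is not stated in the labels. Their deviations correlated by -0.204 to 0.383 (median 0.0882), over 0.1 in 5 of 15 pairs of groups. Over all genes, the block gave 509 higher and 154 lower for dose at 24 h, against 359 and 94 as reported. For 1 µg/ml at 24 h it gave 1746 and 934, against 1651 and 862.

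Leaving out each library in turn gave, for 1 µg/ml at 4 h, 1 to 5 higher and 0 to 8 lower; for 10 µg/ml at 4 h, 1 to 4 and 1 to 7; for 1 µg/ml at 24 h, 0 to 3 lower; for 10 µg/ml at 24 h, 1 to 8 and 1 to 8. The dose comparison at 24 h gave 0 to 1 higher, time 8 to 22 and 0 to 3, and the interactions 0 to 3 and 0 to 2 with 1 µg/ml and 0 to 7 and 0 to 6 with 10 µg/ml. With 10 µg/ml at 24 h the counts were 1 and 1 without the first untreated library, 2 and 8 without the second, and 1 and 3 without the first treated one. With 1 µg/ml at 24 h the 3 lower calls were lost without the first untreated or either treated library. At 4 h they were 5 and 0 with 1 µg/ml without the first untreated library, 1 and 8 without the second, and with 10 µg/ml 1 and 7 without the second. Against uHL-60, leaving out the uHL-60 library of 1 time leaves the difference at the other time. The median was -0.63 without the library at 4 h, which is the difference at 24 h. It was -1.27 without that at 24 h, which is the difference at 4 h. Each rests on 1 uHL-60 library. The cause of the other differences between the alternatives was not tested. With 2 libraries a group small changes can go uncalled, and NDUFV2 and NDUFA13, with 11 to 118 counts in a dHL-60 library, are the least precise members.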
